A study of Homo sapiens with 4 samples.

Results

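Amino acid transporters carry amino acids across the plasma membrane. With earlier results of these data known, 10 of their genes were chosen by name. They were followed here in HT1080 human fibrosarcoma cells kept for 36 h under control conditions (21% oxygen) or in hypoxia (1% oxygen). All 10 were measured, by 11 of the 19460 probe sets that name exactly 1 gene, among 18417 genes in all. Each condition gave total RNA and ER-RNA, which was extracted from endoplasmic reticulum (ER) isolated with a commercial kit. For RNA from subcellular fractions, ER isolation among them, the methods name a short treatment of the cells with cycloheximide beforehand. They do not name it for total RNA, so in comparisons between the fractions this treatment and the fraction cannot be told apart. Each of the 4 RNAs was a pool from 5 experiments and was read on 1 array (Affymetrix Human Gene 1.0 ST). The cells of both conditions were held in low-serum medium before and during the experiment. There are no replicates, so no p-value or error is given, and precision is limited by having 1 array for each value.

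Each transporter has its own set of substrates. SLC7A11 (xCT) imports cystine in exchange for glutamate and so feeds glutathione synthesis, while SLC7A5 (LAT1) exchanges large neutral amino acids such as leucine. Both reach the cell surface as partners of the glycoprotein SLC3A2 (CD98 heavy chain). SLC7A1 and SLC7A2 take up arginine and lysine, SLC1A4 and SLC1A5 exchange small neutral amino acids and, for SLC1A5, glutamine, SLC38A1 and SLC38A2 take up glutamine and alanine with sodium, and SLC1A3 takes up glutamate and aspartate. Several of these genes belong to the amino acid response, in which the transcription factor ATF4 binds a composite element in its target genes when amino acids are scarce or the ER is stressed, and SLC7A11 is also a known target of NRF2. Such membrane proteins are made by ribosomes bound to the ER.

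Because many of these genes are known ATF4 targets, the letters of the composite element, TGATGNAAN, were looked up on both strands of the RefSeq promoter windows (250 bases before to 50 after an annotated start, GRCh38.p14). Windows were matched by symbol for 8 transporters, 16 windows in all, and not for SLC7A11 and SLC7A2. Of these 8 genes, 6 held the letters in a window (6 of 16 windows), whereas 4.45% of all 27305 genes and 3.61% of all 35116 windows did. Genes with more windows hold the letters more often, 3.85% of those with 1 window and 7.85% of those with 3, and SLC1A3, SLC1A5 and SLC3A2 have 3 each. The 6 matches are shown because they show how far the letters at this element differ between the transporters, with the 9 matching letters in capitals, on the strand where they read TGATG.
SLC1A3: aggaaatgacTGATGCAAAgcagggttaa
SLC1A4: cggctggagaTGATGCAAAcgggagccgc
SLC1A5: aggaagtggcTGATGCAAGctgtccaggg
SLC38A1: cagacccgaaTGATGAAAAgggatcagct
SLC3A2: ggagcTGATGTAAGgagtcctgca
SLC7A1: ggcgcactgcTGATGAAACctggcgccgg

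The SLC1A3 stretch lies at chr5:36596358-36596386 on the plus strand, and its match begins 220 bases before the start. That of SLC1A4 lies at chr2:64989381-64989409 on the minus strand, opposite to the gene, with the match across the start. The SLC1A5 stretch is at chr19:46784893-46784921 (minus strand), with the match beginning 97 bases before the start. The SLC38A1 stretch is at chr12:46266502-46266530 (minus strand), 4 bases before the start and across it. In SLC3A2 (chr11:62881725-62881748, minus strand, opposite to the gene) and in SLC7A1 (chr13:29595663-29595691, minus strand) the match lies after the start, so within the transcribed part. SLC1A3 and SLC1A4 share the same 9 letters, and SLC1A5 differs from them in the last. SLC38A2 and SLC7A5 had no match in their windows, which says only that these letters are not there. A fuller form of the element, TGATGCAAT, was in none of the 16 windows (0.293% of all genes). The core letters of the NRF2 element, TGACNNNGC, were in 5 of the 16 windows, from 5 of the 8 genes, where 13.3% of all windows and 16.1% of all genes held them. The core of the HIF element, ACGTG, was also in 5 windows of 5 genes, where 21.4% of all windows and 24.9% of all genes held it. None of the 6 matches overlapped either of these.

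The arrays were first checked against their labels. Of 8 HIF target genes, 7 were called up in hypoxia in both fractions. Of 8 mesenchymal markers, 6 lay above the median of both total RNA arrays, among them VIM and FN1. None of the 4 endothelial and 4 leukocyte markers did, and 2 of 7 epithelial markers did (CLDN3 and KRT14). The array medians on the log2 scale were 7.41 (control) and 7.49 (hypoxia) for total RNA but 6.25 and 6.34 for ER-RNA, and hypoxia was compared with control within each fraction. Transcripts of 12 ER-resident and secreted proteins had a median log2 ER-RNA over total RNA of -2.17 under control conditions, below -0.09 for 11 cytosolic products. By these listed genes, the fraction labelled ER-RNA held relatively less of the transcripts that are translated at the ER. The cytosolic products were brighter in total RNA (11.24 to 14.01 under control conditions, against 9.35 to 13.19), and the part of signal level was not tested. The paper checked the purity of its ER fraction on marker proteins, not on these transcripts. No value below is read as a move to or from the ER.

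In hypoxia, 9 of the 10 transporters were lower in total RNA and the same 9 were lower in ER-RNA. Of all expressed genes 55.7% were lower in total RNA and 52.5% in ER-RNA. SLC38A2 was the gene that was higher in both. A call needed 1 of the 2 arrays to exceed its own median (an expressed gene), a fold change over 1.4 and a z-score beyond 3, where z is the log2 difference over an SD read from a curve of the pair's SD against its mean. By this rule 6 of 10 fell in total RNA (60.0%), where 7.45% of 11530 expressed genes did. In ER-RNA 2 of the 9 expressed transporters fell (22.2%), where 8.25% of 11876 expressed genes did. None rose in either fraction, where 2.32% (total RNA) and 1.12% (ER-RNA) of expressed genes did. The 10 were chosen with earlier results of these data known, so these shares describe them and are no test. The 10 had a median log2 fold change of -0.90 in total RNA, against -0.06 over the expressed genes, and of -0.53 in ER-RNA, against -0.04. By the fold change alone, 8 of 10 were lower past 1.4 in total RNA (18.6% of expressed genes were, and 6.2% were higher) and 5 of 9 in ER-RNA (21.4% were, and 6.53% were higher). With an SD from the scaled median absolute deviation of probe sets with like means, the calls of SLC7A11 and SLC7A2 were left in total RNA and that of SLC7A11 in ER-RNA. That SD is of the log2 differences, while the curve is of the SD of a pair's values. The settings thus differ in scale as well, and a z-score of 3 by the curve is not 3 SDs of a difference. In bulk RNA of 1 cell line, a change in all cells and a larger change in some of them cannot be told apart.

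SLC7A11, the cystine and glutamate exchanger, fell in both fractions. Its log2 value in total RNA was 9.87 under control conditions and 8.32 in hypoxia, and in ER-RNA 8.01 and 6.53. Hypoxia thus left 0.341 of the control level in total RNA (z-score -5.73) and 0.360 in ER-RNA (z-score -6.01). In total RNA 0.304% of the expressed genes had a lower log2 fold change, and in ER-RNA 0.935%. SLC7A11 therefore lay among the strongest falls of both fractions, with nearly the same size in each. In ER-RNA its call was lost when the expression filter was set at the 75% quantile. It passed that filter (8.01 against a quantile of 7.80 under control conditions). The SD curve was then fitted on fewer probe sets, and the z-score no longer sufficed.

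SLC7A5, which exchanges leucine and other large neutral amino acids, had log2 values of 11.51 and 10.54 in total RNA and fell to 0.511 of control (z-score -3.60). In ER-RNA its values were 8.46 and 8.02, at 0.734 of control with a z-score of -1.48, and it was not called. Its partner SLC3A2 was called in neither fraction. SLC3A2 went from 10.74 to 10.01 in total RNA, 0.605 of control with a z-score of -2.58. In ER-RNA SLC3A2 went from 9.19 to 8.57, 0.651 of control with a z-score of -1.94. Both folds of SLC3A2 are past the threshold, and the z-score is what kept it from a call. SLC3A2, SLC7A5 and SLC7A11 were thus lower on both hypoxia arrays than on their controls, with the larger differences in SLC7A11.

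Among the transporters of arginine and lysine, SLC7A2 had the largest log2 difference of the 10 in total RNA. Its log2 values there were 9.37 and 7.48, so that it fell to 0.271 of control (z-score -7.77), and 0.0867% of the expressed genes had a lower log2 fold change. In hypoxia it ended at the array's median, and its call was lost if both arrays were required to exceed their medians. In ER-RNA its values of 6.21 and 5.68 were both below the array medians, so it did not count as expressed there. SLC7A1, the other gene of this pair, was called in neither fraction. SLC7A1 had 10.63 and 10.14 in total RNA (0.713 of control, z-score -1.74) and 7.41 and 7.27 in ER-RNA (0.908 of control, z-score -0.56). The 2 cationic transporters therefore differed in the size of their change in total RNA, -1.88 against -0.49 on the log2 scale, a difference that cannot be tested with 1 array per condition.

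SLC1A3, SLC1A4 and, by its brighter probe set, SLC1A5 fell in total RNA by similar amounts. SLC1A5, the exchanger for glutamine and other neutral amino acids, went from 10.73 to 9.70 and fell to 0.491 of control (z-score -3.65). In ER-RNA SLC1A5 went from 8.01 to 7.62, at 0.765 of control and not called (z-score -1.37). SLC1A4, its relative for alanine, serine and cysteine, went from 8.65 to 7.72 in total RNA and fell to 0.527 (z-score -4.03). In ER-RNA SLC1A4 had 6.51 and 5.97, 0.692 of control, with the hypoxia value below the array's median of 6.34 (z-score -1.64). The glutamate transporter SLC1A3 fell to 0.544 of control in both fractions, from 8.95 to 8.07 in total RNA (z-score -3.54) and from 6.87 to 5.99 in ER-RNA (z-score -3.14). The calls of SLC1A4 and SLC1A3 in total RNA were lost when the expression filter was set at the 75% quantile. SLC1A4 did not pass that filter. SLC1A3 passed it (8.95 against a quantile of 8.87 under control conditions) and lost its call with the SD curve fitted on fewer probe sets. SLC1A3 and SLC7A11 were the transporters called in both fractions, but the hypoxia value of SLC1A3 in ER-RNA was below the array's median, and this call was lost if both arrays were required to exceed it.

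A second probe set names SLC1A5, and it did not share the fall. Its log2 values were 8.03 and 7.97 in total RNA and 6.66 and 6.60 in ER-RNA, a log2 fold change of -0.06 in each. The annotation pairs this probe set with another set of transcript records than the brighter one, which stood for the gene here. With the mean of both, the log2 fold change of SLC1A5 in total RNA was -0.54 and not called, so the fall of SLC1A5 rests on 1 of its 2 probe sets. The values of SLC1A5 between the fractions, given further on, come from the same probe set. No other transporter had a second probe set.

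The sodium-coupled glutamine and alanine transporters SLC38A1 and SLC38A2 were called in neither fraction. SLC38A1 had 11.52 and 11.17 in total RNA, 0.785 of control with a z-score of -1.35. In ER-RNA SLC38A1 had 9.50 and 8.98, 0.695 of control with a z-score of -1.62. SLC38A2 was the exception in direction, with 12.35 and 12.73 in total RNA (1.30-fold, z-score 1.99) and 11.35 and 11.63 in ER-RNA (1.21-fold, z-score 1.01). In total RNA 90.3% of the expressed genes had a lower log2 fold change than SLC38A2, and in ER-RNA 77.7%. Its folds lie below the threshold of 1.4, but the sign was the same with the arrays centred on their medians, after quantile normalization and after within-pair loess.

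**Figure D1:**
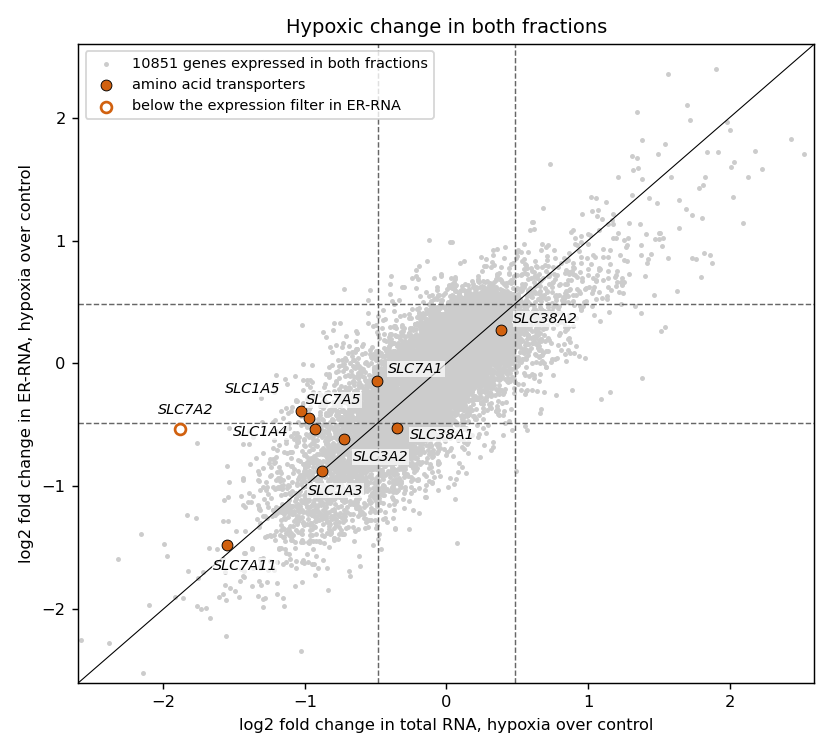
Log2 fold change, hypoxia over control, in total RNA (x axis) and ER-RNA (y axis) for 10851 genes expressed in both fractions (grey; 3 lie outside the axes) and the 10 transporters (orange; SLC7A2, open, is below the expression filter in ER-RNA). Dashed lines mark a fold of 1.4 and the solid line equal change. SLC7A11 and SLC1A3 lie on the line of equal change, while SLC1A5, SLC7A5, SLC1A4 and SLC7A2 lie above it.

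The difference in total RNA exceeded that in ER-RNA for several transporters. The log2 fold change in ER-RNA minus that in total RNA was 0.00 for SLC1A3 and 0.08 for SLC7A11, against 0.64 for SLC1A5, 0.52 for SLC7A5, 0.39 for SLC1A4 and 0.35 for SLC7A1. For SLC7A2 the difference was 1.35, but its ER-RNA signal was below the arrays' medians. SLC3A2 had 0.11, while SLC38A2 (-0.11) and SLC38A1 (-0.17) were below 0. Over the 10851 genes expressed in both fractions the median of this difference was -0.01, with quartiles of -0.21 and 0.17. Of these genes, 98.4% had a lower value than SLC1A5, 96.8% a lower one than SLC7A5, 92.7% a lower one than SLC1A4 and 90.5% a lower one than SLC7A1. The second probe set of SLC1A5 did not share this, with a log2 fold change of -0.06 in each fraction and 50.7% of the genes lower, and with the mean of both probe sets SLC1A5 had -0.54 in total RNA against -0.22 in ER-RNA. For SLC1A5, SLC7A5, SLC1A4, SLC7A1 and SLC7A2 the difference was above 0 under the 3 other scalings, from 0.26 for SLC7A1 after within-pair loess upwards. For SLC1A3 its sign turned with the scaling, to -0.12 after within-pair loess, and SLC38A2 was at 0.00 there. Signals in ER-RNA were lower than in total RNA for each of the 10, and the part of signal level in these differences was not tested.

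Set against total RNA, the transporters lay low in ER-RNA. The log2 ratio of ER-RNA over total RNA had a median of -2.11 for the 10 under control conditions and of -1.94 in hypoxia, while all 18417 genes had -1.11 and -1.09. The other 366 genes with a solute carrier symbol had medians of -1.38 and -1.36, and 42 other amino acid transporters -1.41 and -1.30. Both groups include genes that did not count as expressed. Some of the 42 lay as low as the 10 under control conditions, SLC6A6 at -3.12, SLC6A9 at -2.65 and SLC7A6 at -2.48. Others lay higher, SLC36A4 at -0.82 among them. A low ratio was thus not particular to the 10. By their medians the 10 transporters lay near the ER-resident and secreted products (-2.17 and -1.92) and away from the cytosolic products (-0.09 and -0.23). Under control conditions SLC7A1 (-3.22), SLC7A2 (-3.15) and SLC7A5 (-3.04) had the lowest ratios, with 0.196%, 0.261% and 0.429% of all genes below them. For SLC7A2 the ER-RNA signal was below the array's median. SLC1A5 followed at -2.72 (its second probe set was at -1.36, with 34.5% of all genes lower), then SLC1A4 at -2.14, SLC1A3 at -2.08, SLC38A1 at -2.02 and SLC7A11 at -1.86. SLC3A2 (-1.55) and SLC38A2 (-0.99) had the highest.

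Taken against genes whose total RNA value lay within 0.25 of their own, the order was much the same, while several transporters stood out less. Of 1484 such genes 0.0674% had a lower control ratio than SLC7A2, of 653 genes 1.23% had a lower one than SLC7A1, and of 256 genes 4.30% had a lower one than SLC7A5. For SLC3A2 the share was 40.3%, for SLC38A2 38.7%, for SLC7A11 27.2% and for SLC38A1 25.6%. Among all genes these shares were 24.9%, 57.9%, 13.5% and 9.56%. In hypoxia SLC7A2 stood at -1.80, SLC7A5 at -2.52, SLC1A5 at -2.09 and SLC7A1 at -2.87. These 4 ratios were higher than under control conditions, which is the same difference between fractions as described above. The ER-RNA signal of SLC7A2 was below the median of both arrays. The second probe set of SLC1A5 did not share the rise, with -1.36 under control conditions and -1.37 in hypoxia.

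**Figure D2:**
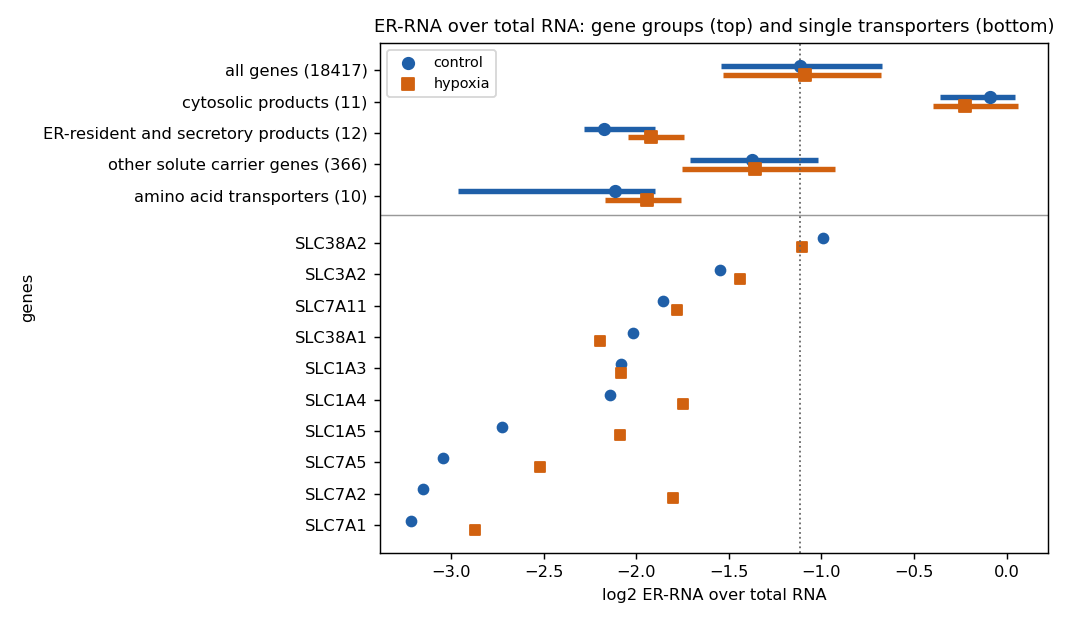
Log2 ER-RNA over total RNA, control (blue circles) and hypoxia (orange squares). Above the line are medians with quartiles as bars for groups of genes, with the number of genes in brackets, and below it the single transporters in order of the control value. The dotted line is the control median of all genes (-1.11), and 9 of 10 control values lie left of it.

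The level of these ratios depends on how the arrays are scaled to each other. The median over all genes under control conditions was -1.11 as deposited, 0.04 with arrays centred on their medians and 0.07 after quantile normalization. Relative to that median, 9 of 10 transporters lay below it under control conditions as deposited and 10 of 10 after quantile normalization or loess. The exception, SLC38A2, lay 0.12 above the median as deposited and at -0.81 against it after quantile normalization. The cytosolic products too changed sides, from 1.02 above to -0.15, while the ER-resident and secreted products were below the cytosolic ones under each scaling.

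Few of the other amino acid transporters were called. Of 42 measured, at the plasma membrane or the lysosome, 19 were expressed in each fraction, 0 rose and 1 fell, the same gene in both. It was SLC38A6, which takes up glutamine, with 9.29 and 8.47 in total RNA and 8.27 and 7.33 in ER-RNA. The gene with the highest log2 fold change among those expressed in total RNA was the glutamate and cysteine transporter SLC1A1, at 0.81 with a z-score of 2.63 and not called. The glycine transporter SLC6A9 was at -0.80 in total RNA, just short of a call with a z-score of -2.91, and at 0.27 in ER-RNA. In total RNA the taurine transporter SLC6A6 was at 0.52 (z-score 2.00). Of the other light chains of SLC3A2, SLC7A6 was at -0.58 there (z-score -2.07), SLC7A8 at 0.09 and SLC7A10 at 0.40, none of them called. The expressed genes of this list had a median log2 fold change of -0.11 (total RNA) and 0.04 (ER-RNA). Among all 366 other solute carrier genes, which include these apart from CTNS, 14 of 215 expressed genes fell in total RNA (6.51%) and 10 rose, and in ER-RNA 11 of 206 fell (5.34%) and 3 rose. The shares of falls are close to those over all expressed genes, 7.45% and 8.25%. The rises made up 4.65% in total RNA and 1.46% in ER-RNA, where 2.32% and 1.12% of all expressed genes rose.

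Genes of the ATF4 amino acid response split into falls and non-falls. Of 26 measured, 8 of 25 expressed genes fell in total RNA (32.0%) and 7 of 25 in ER-RNA (28.0%), 6 of them in both. Over all expressed genes the shares of falls were 7.45% (total RNA) and 8.25% (ER-RNA). ASNS, which makes asparagine, had 9.03 and 7.96 in total RNA and 8.63 and 7.12 in ER-RNA. PSAT1 of serine synthesis fell most, from 10.16 to 8.56 and from 10.15 to 8.24. The other genes that fell in both were PSPH of serine synthesis, MTHFD2 of mitochondrial folate metabolism, CHAC1, which degrades glutathione, and CTH, which makes cysteine. WARS1, a tryptophanyl-tRNA synthetase, and ALDH1L2, a mitochondrial folate enzyme, fell in total RNA, and the stress gene NUPR1 in ER-RNA. ATF4 itself was not called, with log2 fold changes of 0.24 (total RNA) and 0.29 (ER-RNA). The stress genes DDIT3 (0.64 and 0.71) and TRIB3 (0.16 and 0.26) were not called either. STC2, a secreted glycoprotein, rose in total RNA (0.87) and PPP1R15A, which lets translation resume after stress, in ER-RNA (0.98). Each was 1 of 25 expressed genes of this list (4.0%), where 2.32% (total RNA) and 1.12% (ER-RNA) of all expressed genes rose. The medians of the list's expressed genes were -0.53 (total RNA) and -0.45 (ER-RNA).

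Some genes of glutathione metabolism and the thiol systems fell as well. Of 17 measured, 5 of 16 expressed genes fell in total RNA (7.45% of all expressed genes did) and 8 of 16 in ER-RNA (8.25%), and all 5 fell in both. They were the glutathione synthetase GSS (-0.88 and -1.03 on the log2 scale), the glutathione reductase GSR (-0.96 and -0.97), the thioredoxin reductase TXNRD1 (-0.94 and -1.63), CHAC1 (-1.39 and -1.06) and CTH (-0.68 and -0.80). In ER-RNA GCLM, the modifier subunit of the first enzyme of glutathione synthesis, fell by 2.34 on the log2 scale, CHAC2, a relative of CHAC1, fell by 2.43 and GGCT, which acts on glutathione breakdown products, fell by 0.86. GCLC, the catalytic subunit of that enzyme, was called in neither fraction (-0.47 and -0.70). In total RNA GCLM was at -1.03 (z-score -2.76) and not called, and CHAC2 was below the expression filter. Both ended at low signal in ER-RNA. In hypoxia GCLM was at 4.45 there, below the array's 25% quantile of 4.78, and CHAC2 at 5.62, below its median of 6.34. The highest value in total RNA was 0.41 for GGT7, a gamma-glutamyltransferase, and its relative GGT5 was at 0.31 and 0.50, also not called. GPX4, which protects membrane lipids with glutathione, was at -0.03 and 0.13, and NFE2L2, which encodes NRF2, at -0.61 and -0.67, neither called. CD44, known to hold SLC7A11 at the surface, was at -0.16 and 0.31. CHAC1 and CTH also stand in the ATF4 list.

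Genes that use glutamine, glutamate and aspartate included several falls. Of 14 measured, 5 of 13 expressed genes fell in each fraction (38.5%, against 7.45% and 8.25% of all expressed genes), 4 of them in both. These were the aspartate aminotransferases GOT1 (-1.34 and -1.27) and GOT2 (-0.81 and -1.27), the mitochondrial aspartate and glutamate carrier SLC25A12 (-1.53 and -1.83) and ASNS. The related carrier SLC25A13 fell in ER-RNA (-0.93) and CAD of pyrimidine synthesis in total RNA (-0.83). The highest log2 fold change in total RNA was 0.16 for the alanine aminotransferase GPT, and glutamine synthetase (GLUL) was at 0.06 and -0.09.

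For arginine, the substrate of SLC7A1 and SLC7A2, 13 genes were measured and 10 were expressed in each fraction. ARG2, the mitochondrial arginase, rose in both, with 9.24 and 10.26 in total RNA. In ER-RNA its values were 9.06 and 10.11. ODC1 and SRM, which make putrescine and spermidine, fell in both (-1.09 and -1.22 for ODC1, -0.95 and -1.02 for SRM). OAT, an ornithine aminotransferase, fell in ER-RNA (-1.04). Of 28 measured genes of amino acid sensing by mTORC1, a kinase complex that drives growth, 1 of 27 expressed genes fell in total RNA (3.70%) and 3 of 28 in ER-RNA (10.7%), shares near the 7.45% and 8.25% over all expressed genes. The kinase gene MTOR fell in both (-1.10 and -0.72), and MIOS (-1.26) and SEH1L (-0.93), subunits of a complex upstream of mTORC1, fell in ER-RNA. The highest value in total RNA was 0.54 for RRAGC (z-score 1.91), and the leucine sensor SESN2 was at -0.63 and 0.12.

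**Figure D3:**
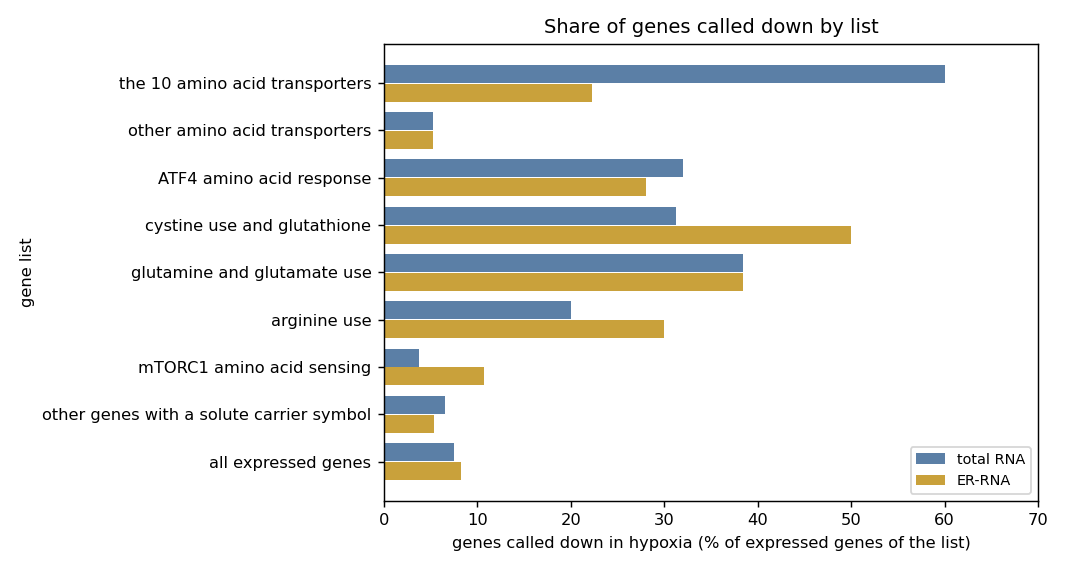
Genes called down in hypoxia as a percentage of the expressed genes of each list, in total RNA (blue) and ER-RNA (yellow). The 10 transporters stand at 60.0% and 22.2%, the other amino acid transporters at 5.26% in both and all expressed genes at 7.45% and 8.25%. Some lists share genes, and the transporters and lists were chosen with earlier results of these data known.

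Across the 4 arrays, with array medians removed and each gene centred on its mean, the profiles nearest to SLC7A11 among 10842 genes expressed in both fractions were those of PPT1, a lysosomal thioesterase (Euclidean distance 0.128), MCCC2, a leucine-degrading carboxylase subunit (0.160), and BTN3A2, a butyrophilin (0.202). The median distance to SLC7A11 was 1.79. The log2 fold changes were -1.37 and -1.50 for PPT1, -1.58 and -1.59 for MCCC2 and -1.54 and -1.28 for BTN3A2, in total RNA and ER-RNA. Nearest to SLC38A2 were SYT8, a synaptotagmin (0.0268), TMEM190, a transmembrane protein (0.0304), and PLIN3, a lipid droplet protein (0.0414), where the median distance was 0.830. With 4 arrays many genes share a like profile by this measure.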

How the data were processed

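Values for 33297 probe sets on 4 arrays were used as the authors deposited them, on the log2 scale after RMA. Partek 6.4 is named in the submitters' processing notes. The sources used here do not say if RMA was run on the 4 arrays jointly. Probe sets took their genes from the platform annotation (19429 of 19460 identifiers were found in RefSeq), and where several named a gene the brightest on average was used.

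Calls followed the study's thresholds (expression above the 50% quantile on at least 1 array of the pair, fold change over 1.4, z-score over 3). The SD was a loess fit (span 0.75, degree 2) of the pair's SD on its mean, fitted on all expressed probe sets, with R 4.3.3 and limma 3.58.1. The methods model treatment and control on their own, which 1 array per group does not allow, so both arrays of a pair entered 1 curve. The calls depend on this SD, which is that of the pair's values and not of their difference, although the difference was divided by it. The transporters and lists were chosen with earlier results of these data known. All 10 transporters are named, with each list's called genes and its extremes in total RNA, and SLC6A6, SLC6A9, SLC7A6 and other uncalled list genes were named after their values were seen. Other normalizations, expression filters, SD estimates, fold thresholds and probe set averages were tried. Promoter letters came from RefSeq windows. Settings for leaving out a replicate do not exist with 1 array per group.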

Additional observations from a re-analysis of the deposited data

How the results depend on the processing

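No paired analysis was possible because each group has 1 array. The 6 falls in total RNA became 2 with an SD from the scaled MAD in 20 bins (SLC7A11 and SLC7A2) and 3 at a fold change over 2 (these and SLC1A5). The scaled MAD was taken on the log2 differences, so it differs from the main SD in scale as well as in estimator. The 2 falls in ER-RNA became 1 if both arrays were required to exceed the 50% quantile, 0 if an array was required to exceed its 75% quantile, 1 with the scaled MAD, 1 at a fold change over 2 and 5 by fold change alone. Each expression filter also changed the probe sets on which the SD curve was fitted. Under the 75% filter SLC7A11 passed in ER-RNA but lost its call. The other counts of falls stayed within 1.5 times, from 4 to 8 in total RNA, and none rose under any setting. The median log2 fold change of the 10 lay between -0.98 and -0.80 in total RNA and between -0.61 and -0.36 in ER-RNA, and no called transporter changed sign. Signal over the array's median limits SLC7A2, SLC1A4 and SLC1A3 in ER-RNA.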
